A study of Mus musculus with 12 samples.

Results

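Expression of the liver's superoxide and peroxide removing enzymes was examined in a dietary mouse model of steatohepatitis. The set comprised 10 genes, Sod1, Sod2, Sod3, Cat, Gpx1, Gpx3, Gpx4, Prdx1, Prdx4 and Txn1, chosen by name for the reaction their proteins serve. A gene was read by the probe set of highest mean signal over the 12 arrays among those whose annotation names that gene alone. A probe set is several short probes to 1 transcript, summarised as a single signal. Of the 10 genes, 9 had such a probe set, out of 18193 genes with one in the whole series. Prdx1, a cytosolic peroxiredoxin, is given no value because its 5 probe sets also name a second gene. All 9 measured genes passed the filter on dim probe sets, a mean signal of at least 20 over the 12 arrays.

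The livers came from C57BL/6 mice, 4 per group with 1 array per mouse, that were 8 weeks old when a feeding period of 8 weeks began. The MCD+HF+Met group received a methionine- and choline-deficient diet enriched in fat with 0.1% metformin mixed in, the MCD+HF group received that diet alone, and the NC group received normal chow. Metformin is a biguanide used against type 2 diabetes. The diet lacks the nutrients that a liver needs to export fat, and mice on it lose weight, which limits it as a model of human disease. The 2 diet groups differed from NC in several nutrients at once, so no single nutrient can be set against the others.

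Superoxide is formed in mitochondria and by NADPH oxidases. Superoxide dismutases turn it into hydrogen peroxide, which catalase in peroxisomes, glutathione peroxidases and peroxiredoxins turn into water. Glutathione peroxidases draw their electrons from glutathione and peroxiredoxins mostly from thioredoxin, both kept reduced by NADPH. The liver is among the tissues richest in catalase and Gpx1.

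The signals are linear array intensities, scaled by the authors so that each array averaged 100 after trimming. The signals of different genes are not comparable as amounts, because probes differ in brightness. Log2 changes are differences in mean log2(signal + 10), tested with limma over 22830 probe sets, and a gene is called when its Benjamini-Hochberg adjusted p is below 0.05. A bulk signal cannot tell fewer cells of a type from less RNA per cell.

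The arrays of a group resembled each other, with median correlations over probe sets of 0.975 within MCD+HF+Met, 0.981 within MCD+HF and 0.976 within NC. The median was 0.970 between MCD+HF+Met and MCD+HF arrays and 0.899 between MCD+HF and NC arrays. Hepatocyte markers were bright in every liver, and the marker sums here are under the authors' scaling only. The summed signal of the 8 hepatocyte markers was 51015 to 64479 in MCD+HF+Met livers and 46308 to 58272 in MCD+HF livers, against 94709 to 110907 in NC livers. The 8 macrophage markers summed to 2468 to 3944 in MCD+HF+Met livers, 4881 to 6903 in MCD+HF livers and 3250 to 4041 in NC livers. The 8 stellate cell markers summed to 2095 to 3454 in MCD+HF+Met livers and 2642 to 3181 in MCD+HF livers, against 943 to 1154 in NC livers. The 6 measured cholangiocyte markers summed to 185 to 421 in MCD+HF+Met livers and 285 to 403 in MCD+HF livers, against 30.2 to 83.0 in NC livers. The 7 measured lymphocyte markers averaged under 20 over the 12 arrays, so none was tested. For beta-actin, the 3' over 5' signal ratio that reflects RNA integrity was 1.62 to 1.86 in MCD+HF+Met livers, 1.46 to 1.62 in MCD+HF livers and 1.54 to 1.88 in NC livers. For Gapdh it was 0.704 to 0.804 in MCD+HF+Met livers, 0.686 to 0.715 in MCD+HF livers and 0.692 to 0.717 in NC livers.

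The sequences just upstream of 4 of the genes are shown because they carry the largest rise (Gpx3), the largest fall (Gpx1), the 1 change called with metformin (Prdx4) and the dismutase that fell most (Sod1). They are the 250 bases before each start of transcription, from RefSeq on GRCm38.p6, written along the gene's strand. Capitals mark the antioxidant response element core TGACNNNGC, bound by NRF2, and the hypoxia response element core ACGTG, each searched on both strands.
Gpx3, chr11:54902604-54902853, plus strand: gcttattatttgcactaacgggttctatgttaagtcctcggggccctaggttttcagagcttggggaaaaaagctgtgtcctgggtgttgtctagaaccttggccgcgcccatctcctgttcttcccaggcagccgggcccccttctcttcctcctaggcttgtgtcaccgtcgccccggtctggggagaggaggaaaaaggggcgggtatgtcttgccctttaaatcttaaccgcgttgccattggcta
Gpx1, chr9:108338830-108339079, plus strand: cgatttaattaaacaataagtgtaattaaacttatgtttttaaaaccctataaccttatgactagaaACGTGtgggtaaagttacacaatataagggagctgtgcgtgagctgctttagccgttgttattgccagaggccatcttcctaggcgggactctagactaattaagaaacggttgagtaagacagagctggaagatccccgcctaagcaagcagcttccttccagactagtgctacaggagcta
Prdx4, chrX:155338461-155338710, minus strand: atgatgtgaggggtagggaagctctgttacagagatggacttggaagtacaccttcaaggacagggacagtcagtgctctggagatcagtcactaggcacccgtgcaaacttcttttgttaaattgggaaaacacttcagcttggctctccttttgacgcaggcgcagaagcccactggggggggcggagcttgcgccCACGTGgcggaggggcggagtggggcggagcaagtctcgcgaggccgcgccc
Sod1, chr16:90220512-90220761, plus strand: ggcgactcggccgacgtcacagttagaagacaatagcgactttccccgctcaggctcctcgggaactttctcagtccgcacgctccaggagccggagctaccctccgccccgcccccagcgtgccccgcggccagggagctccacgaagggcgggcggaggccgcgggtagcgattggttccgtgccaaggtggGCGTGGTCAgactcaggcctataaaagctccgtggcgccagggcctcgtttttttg
Such windows were found for 9 of the 10 genes, 12 windows in all since Gpx4 has 4. The Sod1 window holds 1 antioxidant response element core on the reverse strand, 56 bases before the start, and the Prdx1 window holds 1, 133 bases before it. The core stands in 10.2% of the 32851 windows of that length in RefSeq. The Gpx1 window holds 1 hypoxia response element core, 183 bases before the start. The Prdx4 window holds the letters on both strands in 1 overlapping pair, 51 and 52 bases before the start, against a share of 16.6% of all windows. The windows of Gpx3, Gpx4, Cat, Sod2 and Txn1 hold neither. A match describes these letters and no binding was measured.

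Feeding the MCD+HF diet moved every measured gene of the set past the threshold, in both directions. Relative to NC, 3 genes rose (Gpx3, Sod3 and Gpx4) and 6 fell (Gpx1, Cat, Sod1, Prdx4, Sod2 and Txn1). Across all tested probe sets, 25.4% were called higher and 18.4% lower. The median log2 change of the 9 genes was -0.40, against 0.06 over all tested probe sets and -0.23 over the 1637 bright ones, defined by a mean signal of 1000 or more. Among those bright probe sets, 17.2% were called higher and 48.3% lower, so a fall was the common direction at the brightness of most of these genes. The 2 groups did not overlap for 2 genes that rose and 6 that fell, against 23.0% and 17.6% of all probe sets.

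**Figure D1:**
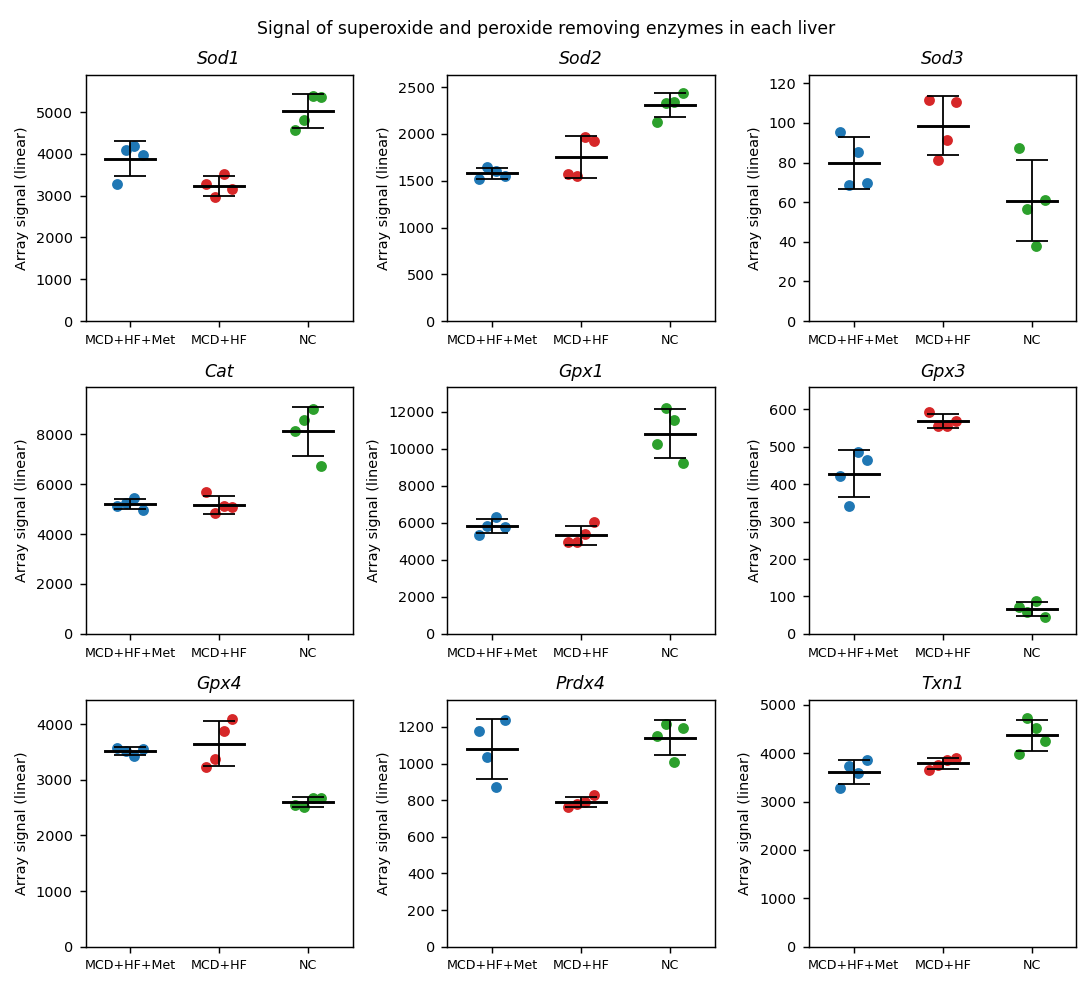
Array signal (linear scale, axes from 0) of the 9 measured genes in each liver, with 4 mice each in MCD+HF+Met (blue), MCD+HF (red) and NC (green). Long bars are means and short bars 1 SD, and Gpx3 shows the widest gap, with NC livers at 45.3 to 89.1 and all other livers at 341 or more.

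The falls depended on how the arrays were scaled. Before trimming, array means were 167 to 177 in MCD+HF+Met livers and 163 to 172 in MCD+HF livers, against 193 to 203 in NC livers, so bright probe sets took a larger share of the NC signal. Quantile normalization, which gives every array the same distribution, removes that difference. Under it Sod1, Gpx1 and Prdx4 were still lower with the diet, Sod2 and Cat were no longer called, and Txn1 turned to a rise of 0.18 (limma adjusted p = 0.0205). Gpx3, Sod3 and Gpx4 stayed higher. Setting all arrays to 1 median, an alternative chosen after seeing the data, moved the median change over all probe sets to -0.08 and kept all 9 calls and directions. The plot of changes under 3 scalings shows each gene.

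**Figure D2:**
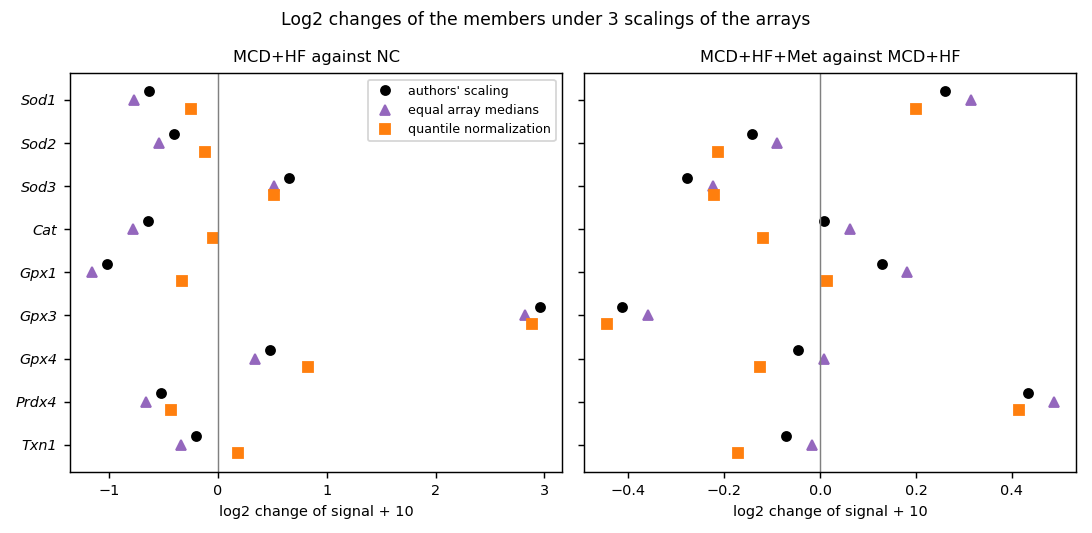
Log2 change of signal + 10 for each gene, MCD+HF against NC on the left and MCD+HF+Met against MCD+HF on the right (the axes differ in range), under the authors' scaling (circles), equal array medians (triangles) and quantile normalization (squares). With the diet, Txn1 lies on opposite sides of 0 and Cat moves to -0.04 under quantile normalization, while Gpx3 stays between 2.82 and 2.96.

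Among the superoxide dismutases, Sod1 encodes the copper and zinc enzyme of the cytosol. Its signals were 3283, 4102, 4184 and 3976 in MCD+HF+Met livers, 3274, 2969, 3526 and 3171 in MCD+HF livers and 4565, 4803, 5382 and 5370 in NC livers. Every MCD+HF liver lay below every NC liver, and the MCD+HF+Met livers lay between, with 1 of the 4 inside the MCD+HF range. Sod1 fell by 0.63 on the log2 scale with the diet (SE 0.09, limma adjusted p = 5.4e-05), to 64.3% of the NC mean. Under quantile normalization the fall was smaller, at -0.25 (limma adjusted p = 0.0216).

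Sod2 encodes the manganese enzyme of the mitochondrial matrix. Sod2 signals were 1519, 1643, 1601 and 1549 in MCD+HF+Met livers, 1571, 1549, 1967 and 1926 in MCD+HF livers and 2129, 2329, 2346 and 2438 in NC livers. The NC livers were all above the others, and the MCD+HF livers formed a lower and a higher pair. The log2 change with the diet was -0.40 (SE 0.09, limma adjusted p = 0.00231), and under quantile normalization it was -0.12 (limma adjusted p = 0.235) and no longer called. Of its 3 other probe sets, the dimmest, 1417194_at, gave -0.16 and was not called (limma adjusted p = 0.473).

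Sod3 encodes the extracellular dismutase. Sod3 signals were 95.6, 68.5, 85.2 and 69.7 in MCD+HF+Met livers, 112, 81.2, 91.5 and 110 in MCD+HF livers and 87.5, 56.6, 37.9 and 61.1 in NC livers. The highest NC liver exceeded the lowest MCD+HF liver, so the groups overlapped. Sod3 rose by 0.65 (SE 0.19, limma adjusted p = 0.00996) with the diet. The call was lost with the gene's other probe set, 1417634_at, at 0.49 (limma adjusted p = 0.103).

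Catalase, encoded by Cat, breaks down hydrogen peroxide in peroxisomes without an electron donor. Cat signals were 5141, 5249, 5441 and 4953 in MCD+HF+Met livers, 5665, 4827, 5128 and 5073 in MCD+HF livers and 8145, 8551, 9017 and 6721 in NC livers. All 8 livers on the diet lay below all NC livers, with the lowest NC liver nearest to them. The diet change was -0.64 (SE 0.09, limma adjusted p = 3.5e-05), and the other probe set gave -0.89. Under quantile normalization the change of Cat was -0.04 (limma adjusted p = 0.758), while the median over bright probe sets was 0.08 there.

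Gpx1 encodes the cytosolic and mitochondrial selenoenzyme that clears hydrogen peroxide in hepatocytes with electrons from glutathione. Gpx1 signals were 5359, 5801, 6330 and 5787 in MCD+HF+Met livers, 4938, 4975, 5379 and 6041 in MCD+HF livers and 10269, 12182, 11523 and 9238 in NC livers. The MCD+HF mean was 49.4% of the NC mean, with no overlap. The log2 change was -1.01 (SE 0.10, limma adjusted p = 6.2e-07). It remained called under quantile normalization, at -0.33 (limma adjusted p = 0.000727). Hepatocyte markers were lower in the same livers under the authors' scaling, 7 of 8 called lower, with a median change of -1.0. These markers are bright, and their changes under quantile normalization are not given here. Their part in the fall of Gpx1, Cat, Sod1 and Sod2 was not tested.

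Gpx3 encodes the secreted selenoenzyme of plasma, made mainly by the kidney in mice. Gpx3 signals were 423, 341, 485 and 463 in MCD+HF+Met livers, 594, 556, 555 and 570 in MCD+HF livers and 71.0, 59.2, 89.1 and 45.3 in NC livers. The MCD+HF livers were close together, and no liver on the diet came near the NC range. The MCD+HF mean was 8.60 times the NC mean, and the log2 change was 2.96 (SE 0.15, limma adjusted p = 1.1e-09), the largest of the set. It stayed between 2.63 and 3.15 under every alternative tried. Stellate cell and cholangiocyte markers were also higher with the diet, 7 of 8 and 4 of 4 tested genes called. So were 3 of 4 neutrophil and 4 of 7 macrophage markers, with 1 macrophage marker called lower. The part of these cell types in the rise of Gpx3 was not tested.

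Gpx4 encodes the selenoenzyme that reduces lipid peroxides within membranes. Gpx4 signals were 3571, 3525, 3425 and 3548 in MCD+HF+Met livers, 3233, 3378, 3880 and 4098 in MCD+HF livers and 2551, 2508, 2673 and 2668 in NC livers. Every liver on the diet was above every NC liver. Gpx4 rose by 0.48 (SE 0.08, limma adjusted p = 2.2e-04) with the diet and by 0.83 under quantile normalization. Gpx4 and Gpx1, both glutathione-dependent selenoenzymes, moved in opposite directions in the same livers.

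Prdx4 encodes the peroxiredoxin of the endoplasmic reticulum, where it uses peroxide to form disulfide bonds. Prdx4 signals were 1180, 1037, 871 and 1238 in MCD+HF+Met livers, 763, 781, 789 and 829 in MCD+HF livers and 1150, 1217, 1006 and 1196 in NC livers. The MCD+HF livers were tightly grouped below all others. The change with the diet was -0.52 (SE 0.11, limma adjusted p = 9.9e-04), and -0.43 under quantile normalization. Its other probe sets gave -0.98 (1435731_x_at, limma adjusted p = 6.1e-05) and -0.56 (1416166_a_at, limma adjusted p = 0.0678).

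Txn1 encodes the cytosolic thioredoxin that reduces peroxiredoxins. Txn1 signals were 3272, 3727, 3594 and 3849 in MCD+HF+Met livers, 3646, 3752, 3849 and 3908 in MCD+HF livers and 3986, 4732, 4519 and 4246 in NC livers. The MCD+HF livers lay just below the lowest NC liver. The change was the smallest of the set, -0.20 (SE 0.08, limma adjusted p = 0.0481), and it was a rise of 0.18 under quantile normalization. The call was also lost when any MCD+HF liver, NC replicate 2, 3 or 4 or MCD+HF+Met replicate 2 or 3 was left out, with limma adjusted p between 0.0535 and 0.145.

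Metformin added to the diet changed 1 of the 9 genes past the threshold. Prdx4 was higher in MCD+HF+Met than in MCD+HF livers, and limma called no gene lower. At an unadjusted p under 0.05, 2 genes were higher (Prdx4 and Sod1) and 1 lower (Gpx3), and the methods' t-test after adjustment called 0 of the 9. Over all tested probe sets, 1.24% were called higher and 2.21% lower. The lowest MCD+HF+Met liver had a Prdx4 signal of 871 and the highest MCD+HF liver 829, so the groups did not overlap. Non-overlapping groups were found for 1 higher gene (Prdx4) and 1 lower gene (Gpx3), against 5.35% and 6.41% of all probe sets. The median change of the 9 genes was -0.05, against -0.02 over all tested probe sets and 0.09 over the bright ones, of which 4.28% were called higher and 1.83% lower.

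Prdx4 rose by 0.43 (SE 0.11, limma adjusted p = 0.0372), 1.37-fold by the means. The 2 other probe sets gave 0.83 (limma adjusted p = 0.0685) and 0.48 (limma adjusted p = 0.082) and were not called. The call was lost without NC replicate 1, without any of the 4 MCD+HF replicates, and without MCD+HF+Met replicate 1, 2 or 4, with limma adjusted p of 0.0507 to 0.0991 and log2 changes of 0.37 to 0.46. Scaling did not end it, with 0.42 (limma adjusted p = 0.0349) under quantile normalization. Erythroid markers with a probe set (4 of 9) summed to 827 to 1275 in MCD+HF+Met livers, 532 to 863 in MCD+HF livers and 774 to 884 in NC livers. Hba-a1 averaged under 20 in every group and Slc4a1 in MCD+HF and NC livers, and only 2 of the 4 were tested. Of these 2, limma called 1 higher and 1 lower with the diet, and 1 higher and 0 lower with metformin. The part of the erythroid markers in the Prdx4 difference was not tested. The mean 3' over 5' ratio was 1.74 in MCD+HF+Met livers and 1.54 in MCD+HF livers for beta-actin, and 0.757 in MCD+HF+Met livers and 0.699 in MCD+HF livers for Gapdh, and its part was not tested.

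Gpx3 averaged 428 ± 63.5 in MCD+HF+Met livers and 569 ± 18.0 in MCD+HF livers (SD, n = 4 each). The highest MCD+HF+Met liver, at 485, was below the lowest MCD+HF liver, at 555. The log2 difference was -0.41 with a 95% interval of -0.76 to -0.06 before adjustment, and it missed the threshold over all probe sets (limma adjusted p = 0.154). Sod1 had a log2 difference of 0.26, with an interval of 0.05 to 0.47 and a limma adjusted p of 0.14. Another bright Sod1 probe set, 1451124_at, gave 0.48 and passed (limma adjusted p = 0.0412), while a dimmer one, 1440222_at, gave -0.40 (limma adjusted p = 0.171). The probe sets of Sod1 disagreed on the direction with metformin.

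The other 6 genes had metformin differences that were small against their intervals. Cat differed by 0.01 (95% interval -0.20 to 0.21), with a minus sign under quantile normalization (-0.12). Gpx1 differed by 0.13 (-0.09 to 0.35) and Gpx4 by -0.05 (-0.23 to 0.14), the last at 0.01 with equal array medians. Sod2 differed by -0.14 (-0.35 to 0.07), Sod3 by -0.28 (-0.70 to 0.15) and Txn1 by -0.07 (-0.25 to 0.11). A miss of the threshold at 4 mice per group does not show that these levels were equal.

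**Figure D3:**
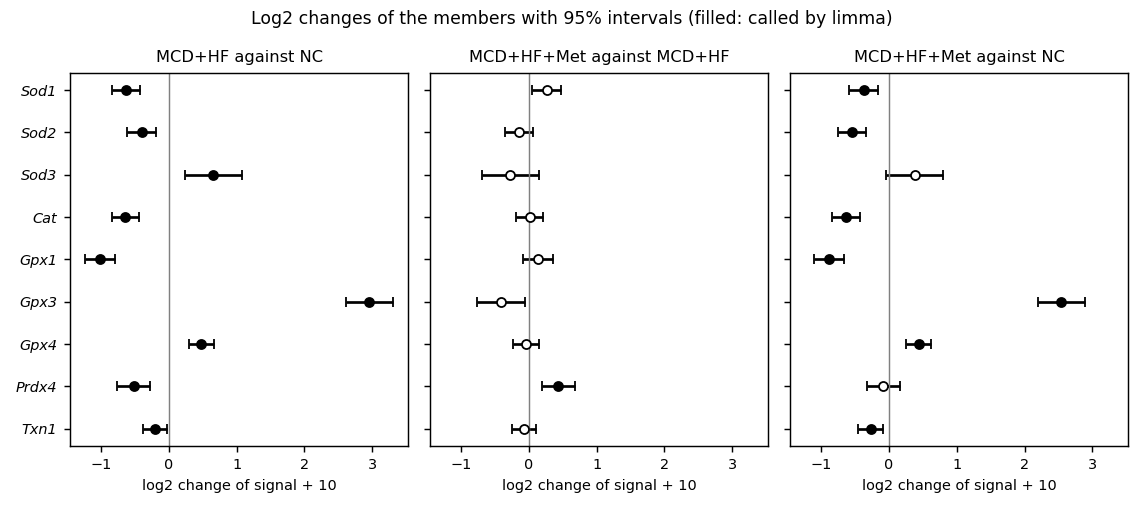
Log2 change of signal + 10 for the 9 genes in the 3 comparisons, with points at the estimate and bars for the 95% interval over 9 residual degrees of freedom, filled where called by limma. All 9 points are filled for MCD+HF against NC and only Prdx4 for MCD+HF+Met against MCD+HF.

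Compared with NC, MCD+HF+Met livers had 2 genes higher (Gpx3 and Gpx4) and 5 lower (Gpx1, Cat, Sod2, Sod1 and Txn1), against 22.2% and 17.5% of all probe sets and 20.5% and 42.3% of the bright ones. The same NC arrays enter both comparisons with NC. Gpx3 was 6.47 times the NC mean, with a log2 change of 2.54 (SE 0.15, limma adjusted p = 6.9e-09). Gpx1 averaged 5819 ± 397 in MCD+HF+Met livers and 10803 ± 1311 in NC livers (SD, n = 4 each), a log2 change of -0.89 (limma adjusted p = 3.3e-06). Cat, at -0.63 (limma adjusted p = 5.0e-05), and Sod1, at -0.37 (limma adjusted p = 0.00496), were no longer called under quantile normalization, at -0.16 and -0.05. The other bright Sod1 probe set, 1451124_at, gave -0.30 and was not called either (limma adjusted p = 0.0627). Txn1, at -0.27 (limma adjusted p = 0.0117), had a change of 0.01 in the opposite direction there. The chosen Prdx4 probe set differed by -0.09 (limma adjusted p = 0.548), with an MCD+HF+Met mean of 94.7% of the NC mean. The other Prdx4 probe sets differed in direction, as 1435731_x_at was called lower at -0.50 (limma adjusted p = 0.0137) and 1416166_a_at gave 0.27 (limma adjusted p = 0.401). Sod3 differed by 0.38 (limma adjusted p = 0.123). Without NC replicate 1, the brightest NC liver for Sod3, the Sod3 difference was 0.55 and passed (limma adjusted p = 0.0231).

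**Figure D4:**
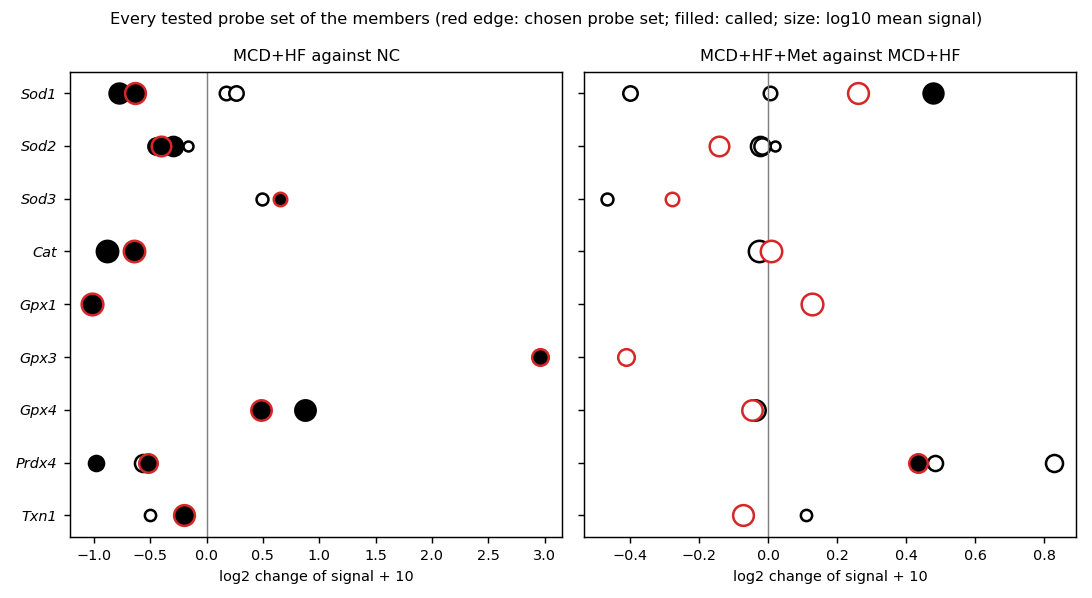
Log2 change of signal + 10 for every tested probe set of the 9 genes, MCD+HF against NC on the left and MCD+HF+Met against MCD+HF on the right (the axes differ in range). Point area grows with log10 of mean signal, red edges mark the chosen probe set and filled points were called by limma; of Sod1's 4 probe sets, 2 dim ones lie at 0.18 and 0.26 with the diet, opposite to the 2 bright ones.

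Across the 12 arrays, the genes whose log2 signals most resembled each enzyme were listed by Pearson correlation among 11099 genes, which mostly follows the gap between NC and the other livers. The nearest to Gpx1 were Scp2 (r = 0.994), Cyp2e1 (0.992) and Apoe (0.990), all bright liver genes. The nearest to Gpx3 were Bex4 (0.988), Cstb (0.986) and Capn6 (0.986). The nearest to Prdx4 were Mlf2 (0.925), Enpep (0.923) and Smu1 (0.910). Their means, like that of Prdx4, did not follow that gap and were lowest in MCD+HF livers. Enpep averaged 1163 in MCD+HF+Met livers, 808 in MCD+HF livers and 1124 in NC livers. Within the set, Cat and Gpx1 varied together (r = 0.953) as did Gpx3 and Gpx4 (0.915), and Gpx1 and Gpx3 ran opposite (-0.936).

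The genes that feed, supply or oppose these enzymes were read from 8 lists of 78 genes, 64 of them tested. With the diet 18 rose and 19 fell, where 27.4% of all genes were called higher and 20.8% lower by their brightest probe set. With metformin 2 were higher and 3 lower, against 1.63% and 2.34%. In MCD+HF+Met against NC livers 14 were higher and 16 lower, against 25.6% and 18.6%. Of the 27 list genes plotted, 26 kept direction and call under quantile normalization in the diet comparison, and Selenop did not. With metformin, 5 list genes were called by limma (Cyba, Cybb, Rac2, Hao1 and Atox1), and the methods' t-test after adjustment called none of them, with adjusted p of 0.0966 to 0.158.

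**Figure D5:**
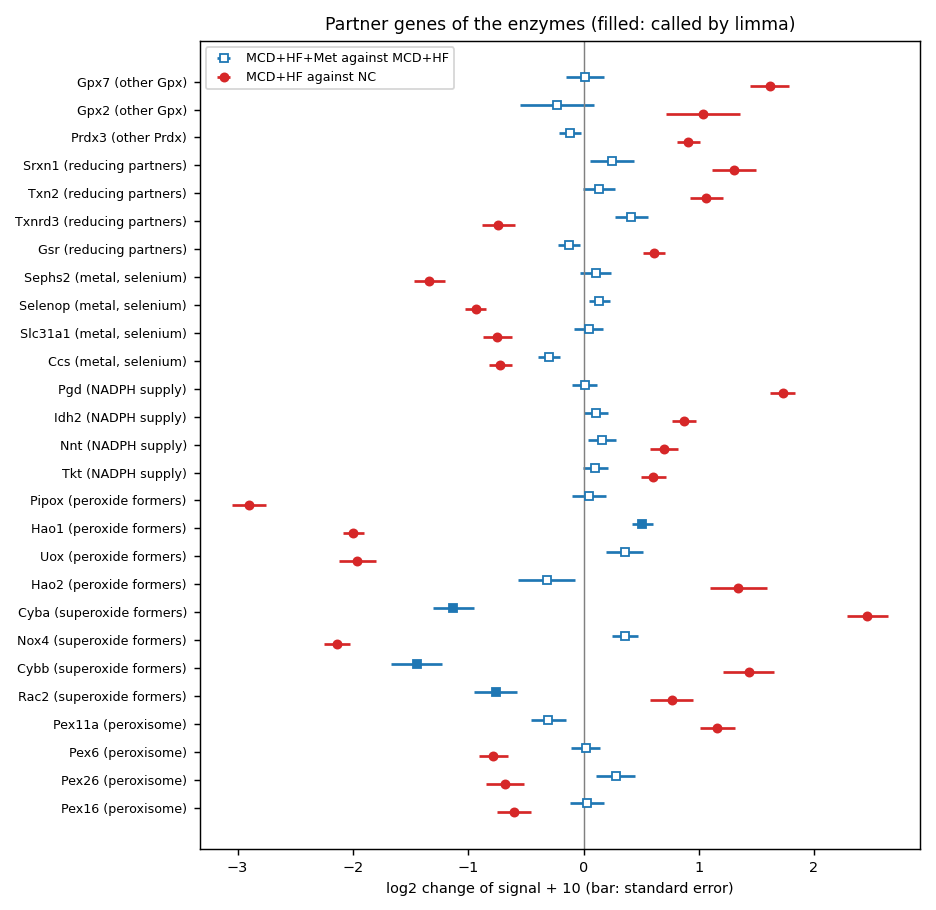
Log2 change of signal + 10 for 27 list genes, up to 4 from each list by largest called change. Squares are MCD+HF+Met against MCD+HF and circles MCD+HF against NC, with bars for the standard error and filled symbols for calls by limma. The changes with the diet range from -2.90 (Pipox) to 2.46 (Cyba), and 4 genes have a filled square.

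Of the other glutathione peroxidases, 3 of 5 were tested and 2 rose with the diet, where 27.4% of all genes were called higher. Gpx7, a peroxidase of the endoplasmic reticulum, had 161, 103, 98.2 and 104 in MCD+HF+Met livers, 138, 109, 102 and 107 in MCD+HF livers and 39.1, 30.0, 22.4 and 30.9 in NC livers, a rise of 1.61 (limma adjusted p = 1.4e-06). The intestinal form, Gpx2, was dim and rose by 1.04 (limma adjusted p = 0.0153). Of the other peroxiredoxins 2 of 4 were tested. Mitochondrial Prdx3 averaged 1821 in MCD+HF+Met livers, 1963 in MCD+HF livers and 1041 in NC livers, and rose by 0.91 with the diet (SE 0.10, limma adjusted p = 2.1e-06), opposite to Prdx4. Prdx2, the cytosolic peroxiredoxin abundant in red cells, differed by -0.10 (limma adjusted p = 0.339).

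Of the 14 thioredoxin and glutathione reducing partners, all tested, 4 rose and 2 fell with the diet. Over all genes 27.4% were called higher and 20.8% lower, so these counts lay near the shares over all genes. With metformin limma called 0, with 2 higher and 0 lower at an unadjusted p under 0.05 and 0 called by the methods' t-test after adjustment. Srxn1, sulfiredoxin, which restores overoxidised peroxiredoxins, averaged 595 in MCD+HF+Met livers, 498.5 in MCD+HF livers and 204 in NC livers, a rise of 1.31 with the diet (SE 0.19, limma adjusted p = 4.2e-05). Mitochondrial thioredoxin, Txn2, rose by 1.07 (limma adjusted p = 1.8e-05), unlike Txn1. Glutathione reductase, Gsr, rose by 0.61 (limma adjusted p = 1.2e-04). The thioredoxin reductases Txnrd1 and Txnrd3 were called in opposite directions, and Txnrd2 was not called, at -0.23 (limma adjusted p = 0.241). Cytosolic Txnrd1 rose by 0.40 (limma adjusted p = 0.00976), a call lost with equal array medians at 0.27 (limma adjusted p = 0.0564), and Txnrd3 fell by 0.74 (limma adjusted p = 6.0e-04). Of 7 tested genes of NADPH supply, 4 rose and 1 fell. Pgd, of the pentose phosphate pathway, averaged 386 in MCD+HF+Met livers, 385 in MCD+HF livers and 109 in NC livers, and rose by 1.73 (limma adjusted p = 6.5e-09). Mitochondrial Idh2 rose by 0.87 (limma adjusted p = 6.7e-06), and Nnt and Tkt by 0.70 and 0.60.

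Metal and selenium supply was lower with the diet for 6 of 11 genes by limma, against 20.8% of all genes. None was higher, at an unadjusted p under 0.05 and by the methods' t-test as well, though 1 was called higher under quantile normalization. Sephs2 makes the selenophosphate from which selenocysteine is built, and had 2490, 2773, 2671 and 3988 in MCD+HF+Met livers, 2519, 2385, 3000 and 3044 in MCD+HF livers and 6329, 7295, 7776 and 6279 in NC livers. Its change was -1.34 (SE 0.13, limma adjusted p = 1.0e-06). Ccs, the copper chaperone of Sod1, averaged 646 in MCD+HF+Met livers, 803 in MCD+HF livers and 1321 in NC livers, a change of -0.72 with the diet (limma adjusted p = 2.3e-05). The copper importer Slc31a1 changed by -0.75 (limma adjusted p = 2.0e-04). Selenop, the liver's secreted selenium carrier, changed by -0.94 (limma adjusted p = 6.2e-07), yet was at 0.04 under quantile normalization (limma adjusted p = 0.498). The copper chaperone Atox1 was higher with metformin, averaging 2279 in MCD+HF+Met livers and 1702 in MCD+HF livers. The rise was 0.42 (SE 0.08, limma adjusted p = 0.0115), and 0.38 under quantile normalization (limma adjusted p = 0.00889). Ccs differed by -0.30 with metformin and was not called (limma adjusted p = 0.102). Under quantile normalization Ccs passed, at -0.34 (limma adjusted p = 0.0443). At an unadjusted p under 0.05, 4 genes of this list were higher and 1 lower with metformin.

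Of the 8 tested oxidases that form peroxide, 4 were lower with the diet and 1 higher, against 20.8% and 27.4% of all genes. Pipox, which oxidises pipecolic acid and sarcosine, had 294, 244, 254 and 202 in MCD+HF+Met livers, 185, 203, 301 and 284 in MCD+HF livers and 1767, 2033, 1756 and 1821 in NC livers. Its change was -2.90 (SE 0.15, limma adjusted p = 8.4e-10). Urate oxidase, Uox, changed by -1.96 (limma adjusted p = 1.3e-07), and the glycolate oxidase Hao1 by -2.0 (SE 0.09, limma adjusted p = 2.3e-10). Hao1 was higher with metformin, at 804, 718, 756 and 778 in MCD+HF+Met livers against 531, 470, 626 and 519 in MCD+HF livers, a rise of 0.51 (SE 0.09, limma adjusted p = 0.00743). Of 13 tested peroxisome biogenesis genes, 5 were lower and 1 higher with the diet, against the same shares of all genes. With metformin limma called 0, with 0 higher and 1 lower at an unadjusted p under 0.05 and 0 called by the methods' t-test after adjustment. Pex11a, which promotes peroxisome division, rose by 1.16 (limma adjusted p = 1.5e-05), while Pex6, of the import machinery, changed by -0.78 (limma adjusted p = 1.2e-04).

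NADPH oxidases form superoxide, and 5 of their 6 tested genes rose with the diet while 1 fell, against 27.4% and 20.8% of all genes. Cyba, the small membrane subunit, had 244, 209, 311 and 216 in MCD+HF+Met livers, 710, 640, 399 and 470 in MCD+HF livers and 103, 72.6, 85.9 and 102 in NC livers. It rose by 2.46 with the diet (SE 0.18, limma adjusted p = 3.1e-08) and changed by -1.13 with metformin (SE 0.18, limma adjusted p = 0.00316). Cybb, the catalytic subunit of phagocytes, had 136, 107, 152 and 135 in MCD+HF+Met livers, 577, 488, 268 and 260 in MCD+HF livers and 148, 155, 133 and 100 in NC livers. It rose by 1.43 with the diet (limma adjusted p = 8.4e-05) and changed by -1.45 with metformin (SE 0.22, limma adjusted p = 0.00296), with MCD+HF+Met livers in the NC range. Rac2, a small GTPase of the same complex, changed by -0.76 with metformin (limma adjusted p = 0.0367). The call of Rac2 was lost without MCD+HF replicate 1, 2 or 4 and without any 1 of the MCD+HF+Met replicates, with limma adjusted p of 0.0508 to 0.12, while Cyba and Cybb stayed called with each array left out. Nox4, an oxidase that mainly releases hydrogen peroxide, changed by -2.14 with the diet (SE 0.11, limma adjusted p = 1.5e-09). With metformin Nox4 differed by 0.36, opposite to Cyba, Cybb and Rac2, and was not called (limma adjusted p = 0.0966). Under quantile normalization that difference was 0.42 and passed (limma adjusted p = 0.0475). Of 7 tested macrophage markers, limma called 4 higher and 1 lower with the diet, and 0 higher and 3 lower with metformin. In MCD+HF+Met against NC livers 2 were higher and 2 lower. The part of these markers in the changes of Cyba, Cybb and Rac2 was not tested. Of the neutrophil markers, 3 of 4 tested rose with the diet. The 7 with a probe set summed to 272 to 625 in MCD+HF+Met livers, 307 to 502 in MCD+HF livers and 145 to 269 in NC livers. Mpo, Elane and Camp averaged under 20 in every group, and Ngp in MCD+HF+Met livers. With metformin limma called 0 of the 4 tested neutrophil markers, and 0 passed an unadjusted p of 0.05. The part of the neutrophil markers was not tested either.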

How the data were processed

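Livers of 12 C57BL/6 mice were profiled on Affymetrix arrays. The deposited table holds 1 signal intensity per probe set, which the authors computed with GCOS, the scanner's software, and scaled so that each array's mean, with 2% trimmed per tail, is 100. It lists 45101 probe sets, 64 of them controls. Other columns, such as detection calls, were not used here, and the genome build behind the probe sets is not given in the sources used here.

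Groups came from the sample labels, which name normal, NASH and NASH with metformin livers. The diets, metformin dose, feeding period and age were taken from the description of the study. From the intensities, log2(signal + 10) was taken without further normalization, controls and probe sets with a mean signal under 20 over all arrays were left out, and the 22830 left entered a single 3-group fit in limma 3.58.1 (lmFit, eBayes with a variance trend) in R 4.3.3. Adjustment was Benjamini-Hochberg over all 22830, with a threshold of 0.05.

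Symbols came from the platform annotation, in which 34945 probe sets name 1 gene, 932 several and 9160 were unnamed here, and 34741 symbols were updated through a RefSeq table of GRCm38.p6. Upstream windows came from RefSeq on GRCm38.p6. Tables were handled with pandas 2.3.3 in Python 3.11.15 and figures with matplotlib 3.10.9.

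The enzymes and the gene lists were chosen with earlier results of these data known. Within each list, up to 4 genes with the largest called change in either of the first 2 comparisons were plotted, and other list genes were named for contrast after their values were seen. Alternatives were other offsets (0, 32), other filters (none, 50), quantile normalization, equal array medians (added after seeing the data), a replicate block, robust variance, no variance trend, only the groups compared, the methods' t-test alone and with its 1.5-fold rule, each array left out, and other probe sets. Precision is limited by having 4 arrays in a group.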

Additional observations from a re-analysis of the deposited data

How the results depend on the processing

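The 27 log2 changes were recomputed 657 times in all. Direction and call held in 598 of these values, the call was lost in 39 and gained in 3, and the direction turned in 17. With the diet 9 genes were called, 8 to 9 with each array left out and 5 by the methods' t-test with its 1.5-fold rule. With metformin 1 was called, 0 to 1 with each array left out. The number was 0 without a filter, without a variance trend, with only the 2 groups, by the methods' t-test alone or with its 1.5-fold rule, and with Prdx4 read by either of its other probe sets, and 2 with Sod1 read by 1451124_at. In MCD+HF+Met against NC 7 were called, 7 to 8 with each array left out, 4 under quantile normalization and 3 by the methods' rule. Between groups, correlations of same-numbered arrays' deviations from their group mean ran from -0.13 to 0.25. Those of differently numbered arrays ran from -0.21 to 0.13. The ranges overlap and do not decide whether the replicate numbers pair the livers. The replicate block left 9, 1 and 7 genes called in the 3 comparisons.

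Directions turned as follows. For the diet, Sod1 was at 0.18 by 1435304_at and 0.26 by 1440222_at, and Txn1 at 0.18 under quantile normalization. For metformin, Sod1 was at -0.40 by 1440222_at, Sod2 at 0.022 by 1417194_at and Txn1 at 0.11 by 1456734_at. Cat was at -0.12 under quantile normalization, -0.027 by 1416430_at and -0.025 to 0.052 with each array left out (negative without MCD+HF replicate 2 or 4 or MCD+HF+Met replicate 3). Gpx4 was at 0.0077 with equal array medians and -0.10 to 0.012 with each array left out (positive without MCD+HF replicate 4). Against NC, MCD+HF+Met livers had Sod1 at 0.18 by 1435304_at, Txn1 at 0.012 under quantile normalization, and Prdx4 at 0.27 by 1416166_a_at and -0.16 to 0.012 with each array left out (positive without MCD+HF+Met replicate 3). The causes were not tested.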
